A study of Homo sapiens with 2 samples.

Results

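The miR-30 family 5p arms are the 5 mature human miRNAs listed as hsa-miR-30a-5p, hsa-miR-30b-5p, hsa-miR-30c-5p, hsa-miR-30d-5p and hsa-miR-30e-5p. They were selected by name, as the 5p arms of miR-30a to miR-30e, from the 793 distinct mature miRNAs of the deposited table, and all 5 were detected in both libraries. The table holds small RNA reads from exosomes, vesicles released into the culture medium, of the human liver tumor lines MHCC97H and HepG2. Both lines are labelled hepatocellular carcinoma, and no genotype change or drug treatment is given for either. MHCC97H is known as a highly metastatic line. Both were grown in DMEM with serum depleted of exosomes, so the lines are the only labelled difference. Each line gave 1 library, so no test between the lines was possible, and line, culture and library preparation cannot be told apart.

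miRNAs are cut from hairpin RNAs, and the arm kept by an Argonaute protein pairs with messenger RNAs mainly through its seed, bases 2 to 8. The miR-30 5p arms share a seed and are therefore predicted to repress overlapping targets. Known targets include SNAI1, a repressor of epithelial genes, and, for miR-30a, the autophagy gene BECN1. In mouse liver, miR-30c lowers the transfer protein MTTP and with it lipoprotein secretion. In hepatocellular carcinoma, miR-30d has been linked to invasion through GNAI2.

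The sequences are shown because members of the family can be told apart in reads only outside the seed. RefSeq (GRCh38.p14) sequences were matched for 3 of the 5 members, and miR-30b-5p and miR-30d-5p are named only. The capitals mark the seed.
miR-30a-5p: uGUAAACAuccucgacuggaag
miR-30c-5p: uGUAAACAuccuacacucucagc
miR-30e-5p: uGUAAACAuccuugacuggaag
All 3 begin with the same 12 bases. Counted from the 5′ end, miR-30a-5p and miR-30e-5p differ at 1 of 22 positions, as C13U. miR-30a-5p and miR-30c-5p differ at 5 of the first 22 positions, as C13A, G14C, G18C, G19U and A20C. The mismatch setting of the authors' alignment is not given in the sources used here, so a read of miR-30a-5p with an error at that base could be counted for miR-30e-5p.

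The hairpin of miR-30a lies at chr6:71403551-71403621, minus strand, and that of miR-30e at chr1:40754355-40754446, plus strand. In the hairpins shown here the capitals mark the 5p arm and then the 3p arm.
MIR30A: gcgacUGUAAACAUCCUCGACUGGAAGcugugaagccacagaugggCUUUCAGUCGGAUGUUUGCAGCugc
MIR30E: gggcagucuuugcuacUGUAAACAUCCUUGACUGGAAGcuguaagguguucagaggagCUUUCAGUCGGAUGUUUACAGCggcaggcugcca
miR-30c-5p comes from hairpins in both neighborhoods, so its reads cannot be assigned to either. MIR30C1, at chr1:40757284-40757372 on the plus strand, lies 2837 bases from MIR30E, and both lie in introns of NFYC, which encodes a subunit of a CCAAT-binding transcription factor. MIR30C2, at chr6:71376960-71377031 on the minus strand, lies 26519 bases from MIR30A. Both lie in introns of the long noncoding RNA genes LINC00472 and AL136164.2 of GENCODE release 29.

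Depth differed between the libraries, with 304457 miRNA reads for MHCC97H and 22831 for HepG2. In CPM (counts scaled to a common total of miRNA reads), 1 read is worth 3.28 in MHCC97H and 43.8 in HepG2. The HepG2 count therefore sets the precision of each ratio. The intervals below are 95% exact Clopper-Pearson intervals and cover counting error only, not variation between libraries. The reads carry no molecular identifiers, so copies of 1 molecule count as separate reads and the intervals can be too narrow.

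miR-30a-5p was the member with the highest level in MHCC97H exosomes and the one that differed most between the lines. It had 8195 reads in MHCC97H, 26917 CPM, and 46 reads in HepG2, 2015 CPM. It was the 10th most abundant miRNA in MHCC97H and the 55th in HepG2. At the HepG2 depth, its MHCC97H level would correspond to 615 reads. The level was 13.4-fold higher in MHCC97H (10.0 to 18.3).

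miR-30d-5p came next. It had 2828 reads in MHCC97H, 9289 CPM, and 60 reads in HepG2, 2628 CPM. It ranked 25th in MHCC97H and 45th in HepG2. Its level was 3.53-fold higher in MHCC97H (2.74 to 4.64), and the intervals of its levels in the libraries, 8951 to 9636 CPM and 2006 to 3381 CPM, did not overlap.

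Scaled to library totals, the other 3 members had similar levels in both libraries. miR-30c-5p had 886 reads in MHCC97H, 2910 CPM, and 63 in HepG2, 2759 CPM, a ratio of 1.05 (0.816 to 1.38). miR-30e-5p had 549 reads, 1803 CPM, and 47 reads, 2059 CPM, a ratio of 0.876 (0.650 to 1.21). miR-30b-5p had 331 reads, 1087 CPM, and 34 reads, 1489 CPM, a ratio of 0.730 (0.512 to 1.07). With this scaling all 3 ratios have intervals that include 1, and their ends bound a difference in either direction at less than 2-fold. The bound does not hold for every scaling: with median centring, given below, all 3 were higher in HepG2 by at least 2-fold.

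**Figure D1:**
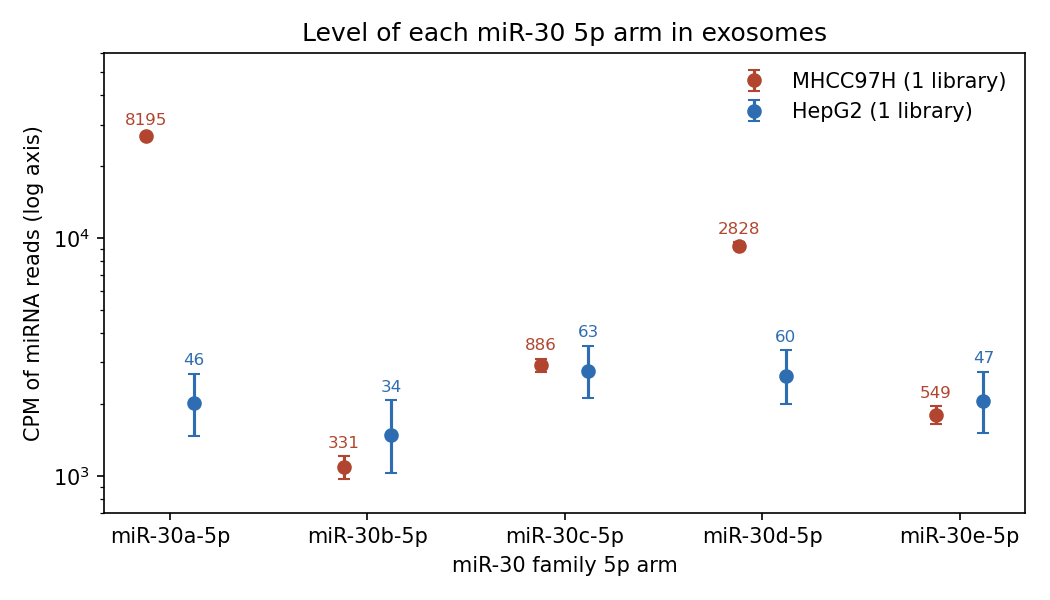
CPM of miRNA reads (log axis) of each miR-30 5p arm in the MHCC97H and the HepG2 library; points are the single libraries, bars the 95% exact counting intervals, and the numbers above them reads. miR-30a-5p (26917 against 2015 CPM) and miR-30d-5p (9289 against 2628 CPM) stand apart between the libraries, while the bars of miR-30b-5p, miR-30c-5p and miR-30e-5p overlap.

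The order of the members differed between the libraries, mainly in the place of miR-30a-5p. In MHCC97H the levels ran, from high to low, from miR-30a-5p to miR-30d-5p, miR-30c-5p, miR-30e-5p and miR-30b-5p, and each step was larger than counting error. The smallest step, from miR-30c-5p to miR-30e-5p, was 1.61-fold (1.45 to 1.798), and the whole span was 24.8-fold (22.2 to 27.7). In HepG2 the order was miR-30c-5p, miR-30d-5p, miR-30e-5p, miR-30a-5p and miR-30b-5p, and no neighboring pair differed beyond counting error. With 250 family reads in HepG2 against 12789 in MHCC97H, steps of the smaller MHCC97H sizes could be missed there. miR-30c-5p, miR-30e-5p and miR-30b-5p kept the same relative order in both. The HepG2 span from miR-30c-5p to miR-30b-5p was 1.85-fold (1.20 to 2.90). The mature forms printed above have 22 or 23 bases, so levels are compared without a length correction, but adapter ligation can favor some ends, and order within a library carries that bias.

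The make-up of the family reads does not depend on how the libraries are scaled. miR-30a-5p held 64.1% of the 12789 family reads in MHCC97H (63.2 to 64.9%) and 18.4% of the 250 in HepG2 (13.8 to 23.8%). miR-30d-5p held 22.1% (21.4 to 22.8%) and 24.0% (18.8 to 29.8%). miR-30c-5p held 6.93% in MHCC97H and 25.2% in HepG2. miR-30a-5p thus dominated the MHCC97H reads, and in HepG2 no member held more than 25.2%. miR-30e-5p held 4.29% and 18.8%, and miR-30b-5p held 2.59% and 13.6%.

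**Figure D2:**
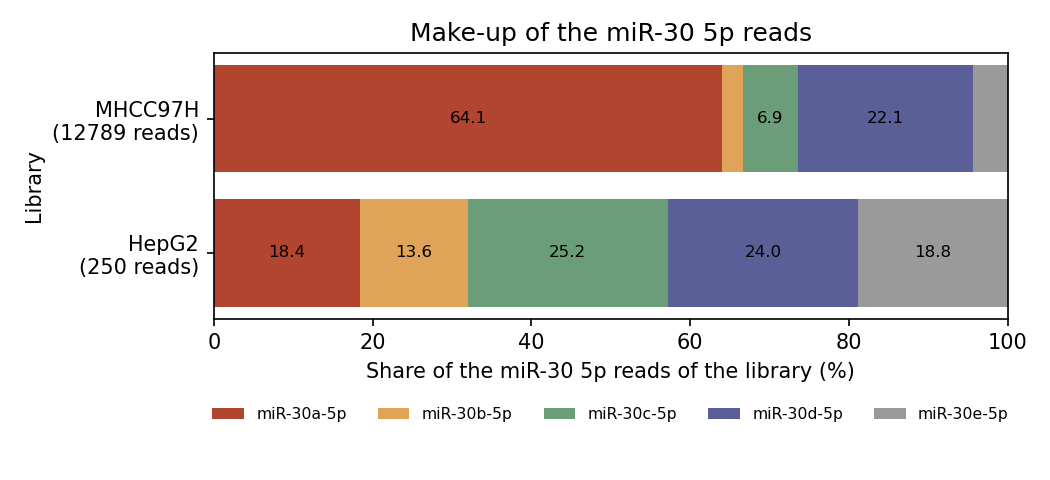
Share (%) of all miR-30 5p reads held by each arm, 1 bar per library. miR-30a-5p takes 64.1% of the MHCC97H reads and 18.4% of the HepG2 reads, where the shares run from 13.6% to 25.2%.

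Within the family, members were also compared in pairs, by how the ratio of a pair changed from HepG2 to MHCC97H, a measure that library scaling does not touch. Of the 10 pairs, 7 changed beyond counting error, and these were the 7 pairs that include miR-30a-5p or miR-30d-5p. miR-30a-5p to miR-30d-5p was 2.90 in MHCC97H and 0.767 in HepG2, a 3.78-fold change (2.52 to 5.69). miR-30a-5p to miR-30b-5p changed most, 18.3-fold (11.2 to 29.5). The 3 pairs among miR-30b-5p, miR-30c-5p and miR-30e-5p changed by 1.20-fold to 1.44-fold, with intervals that include 1 and reach at most 2.27-fold.

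The pair of nearly identical sequences, miR-30a-5p and miR-30e-5p, was 14.9 in MHCC97H and 0.979 in HepG2, a 15.3-fold change (9.83 to 23.6). miR-30e-5p made up 6.28% of the 8744 reads of this pair in MHCC97H (5.78 to 6.81%) and 50.5% of the 93 in HepG2 (40.0 to 61.1%). The 6.28% is thus the most that could have been moved from miR-30a-5p to miR-30e-5p in MHCC97H. A shift of reads between them was not tested.

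Set against all miRNAs, the count of members that differed was close to that of other abundant miRNAs. A miRNA was counted as higher in a line when its CPM ratio was at least 2-fold, on log2(CPM + 1), and its interval excluded 1. By this rule 2 of 5 members were higher in MHCC97H, where 20.4% of all 543 miRNAs at 10 CPM or more passed. Among the 137 miRNAs averaging 500 CPM or more, a class that holds all 5 members, 49.6% passed, and among its 71 5p arms 50.7%. In HepG2 0 of 5 members were higher, where 9.02% of the 543, 18.2% of the 137 and 21.1% of the 71 passed. The members' share is near this background in both directions. The 500 CPM average also admits miRNAs seen in 1 library alone, such as miR-24-2-5p (830 reads in MHCC97H, 0 in HepG2) and miR-483-5p (0 and 124). Such miRNAs pass for the library that holds them, which raises the shares of this class here and below. No member is of this kind, so the comparison is loose.

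The log2 ratio of MHCC97H over HepG2 was 3.74 for miR-30a-5p, 1.82 for miR-30d-5p, 0.08 for miR-30c-5p, -0.19 for miR-30e-5p and -0.45 for miR-30b-5p. Its median was 0.08 over the 5 members, 1.12 over the 543 miRNAs and 1.01 over the 71 well covered 5p arms. Ordered from the MHCC97H side among the 137, miR-30a-5p was 18th, miR-30d-5p 48th, miR-30c-5p 90th, miR-30e-5p 99th and miR-30b-5p 107th. The family thus spread over much of the range of abundant miRNAs. Some miRNAs ahead of miR-30a-5p, such as miR-24-2-5p with 0 HepG2 reads, are in this class through MHCC97H alone. Among miRNAs measured in both libraries the place of miR-30a-5p is therefore nearer the top.

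**Figure D3:**
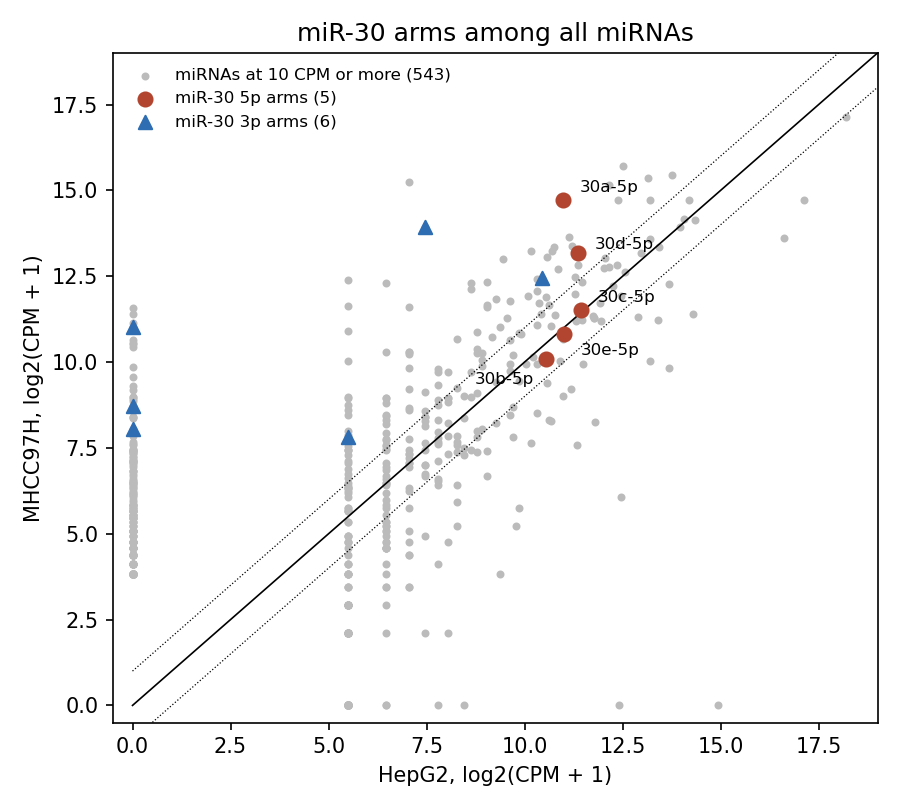
Level of each of 543 miRNAs in HepG2 (x axis) and MHCC97H (y axis), both log2(CPM + 1); the solid line marks equal levels and the dotted lines 2-fold. miR-30a-5p and miR-30d-5p lie above the upper dotted line and the other 3 arms near the solid line; the side on which miR-30c-5p lies turns with other scalings.

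The side of the 2-fold threshold on which 4 of the 5 members lay depended on scaling, and the direction of miR-30c-5p turned. The most abundant miRNA, miR-21-5p, had 144411 CPM in MHCC97H and 300031 CPM in HepG2, and enters both totals. Centring the ratios on the median of the 543 miRNAs lowers every log2 ratio by 1.12. miR-30a-5p then stood at 2.62 and was still higher in MHCC97H, and miR-30d-5p stood at 0.70, below 2-fold. miR-30b-5p (-1.57), miR-30e-5p (-1.31) and miR-30c-5p (-1.04) were then higher in HepG2 by both criteria. miR-30a-5p was higher in MHCC97H under all 5 scalings shown, with log2 ratios of 2.62 to 3.74, and miR-30d-5p under 4 of them.

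**Figure D4:**
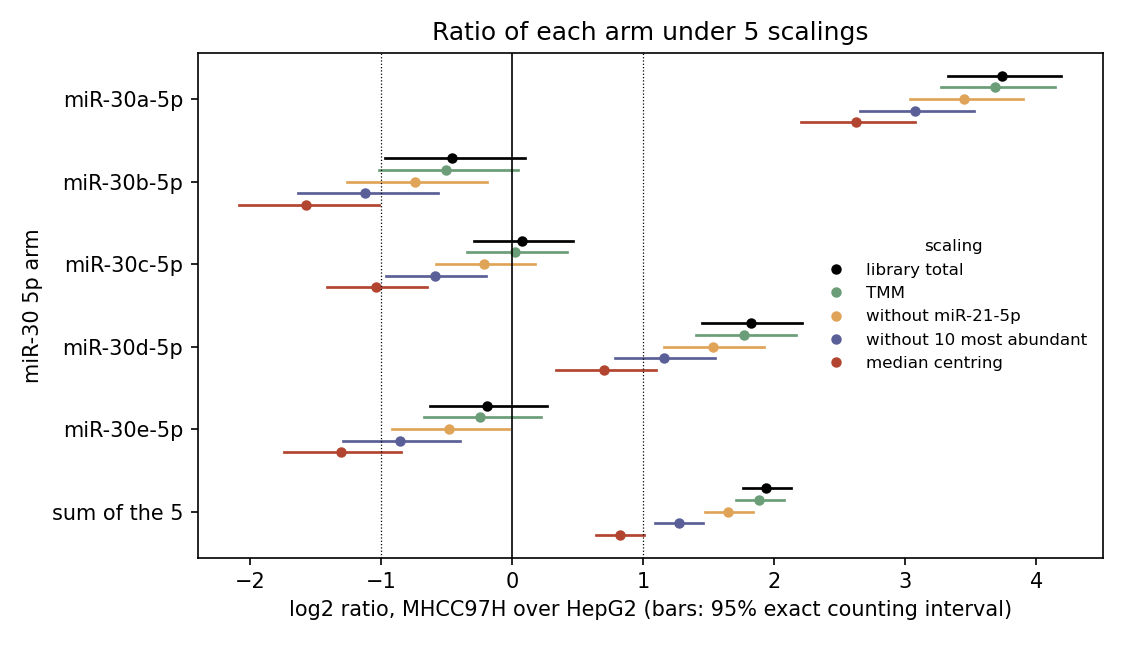
log2 ratio of MHCC97H over HepG2 for each arm and for their sum (y axis) under 5 scalings; bars are 95% exact counting intervals and dotted lines mark 2-fold. miR-30a-5p stays above 2-fold (2.62 to 3.74), miR-30d-5p falls to 0.70 with median centring, and miR-30c-5p turns from 0.08 to -1.04.

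Because the members share a seed, their summed reads give the amount of that seed in each library. The sum was 4.20% of miRNA reads in MHCC97H (4.13 to 4.27%) and 1.095% in HepG2 (0.964 to 1.24%), 3.84-fold higher in MHCC97H (3.38 to 4.37). Per miR-21-5p read there were 0.291 family reads in MHCC97H and 0.0365 in HepG2. That contrast also contains the higher miR-21-5p level of HepG2 (144411 CPM in MHCC97H, 300031 in HepG2). With a total without miR-21-5p the log2 ratio of the sum was 1.65. The higher sum in MHCC97H rested mainly on miR-30a-5p. Without it the sum of the other 4 was 1.51% against 0.894%, 1.69-fold (1.47 to 1.95) and below 2-fold. With median centring the sum of all 5 had a log2 ratio of 0.82, also below 2-fold.

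The partner 3p arms, cut from the same hairpins, are printed for the pairs that can be compared, with the seed in capitals, to show that their seeds differ from that of the 5p arms.
miR-30a-3p: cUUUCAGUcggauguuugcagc
miR-30e-3p: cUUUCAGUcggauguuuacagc
miR-30c-1-3p: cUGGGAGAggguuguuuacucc
miR-30c-2-3p: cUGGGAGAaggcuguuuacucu
Both criteria put 5 of the 6 3p arms higher in MHCC97H, where 20.4% of the 543 miRNAs and 52.8% of the 53 3p arms averaging 500 CPM or more passed. They put 0 of the 6 higher in HepG2, where 9.02% and 7.55% passed. Of the 6, miR-30a-3p, miR-30c-2-3p and miR-30e-3p average 500 CPM or more, and 3 of the 5 calls rest on 0 HepG2 reads. The exception was miR-30c-1-3p, with 68 reads against 1.

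The 5p arm took a smaller share of each arm pair in MHCC97H than in HepG2. For miR-30a it was 63.2% (62.4 to 64.0%) against 92.0% (80.8 to 97.8%), and 4 3p reads were seen in HepG2. For miR-30c, with both hairpins together, it was 55.9% (53.4 to 58.4%) against 98.4% (91.6 to 99.96%). For miR-30e the 5p arm was the minor arm in MHCC97H, 24.3% (22.5 to 26.1%), and held 59.5% in HepG2 (47.9 to 70.4%). The ratio of 3p to 5p reads was thus 6.69-fold higher in MHCC97H for miR-30a (2.44 to 25.6) and 4.58-fold higher for miR-30e (2.83 to 7.49).

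For miR-30b the 5p share was 80.3% in MHCC97H (76.2 to 84.1%), and all 34 HepG2 reads were 5p, which allows a 5p share down to 89.7%. For miR-30d the 5p share was 95.7% (94.9 to 96.4%), and all 60 HepG2 reads were 5p, which allows 94.0%, so a difference was not detectable at this depth. Among 36 arm pairs of other hairpins with at least 50 HepG2 reads, the 5p share was lower in MHCC97H for 20, beyond counting error for 8, and higher beyond counting error for 6. Of the 36, 18 had 3p as the minor arm, and in 15 of them the 5p share was lower in MHCC97H, beyond counting error in 6. Whichever arm was minor, its share was higher in MHCC97H for 28 of the 36. Some minor arms were rare, such as let-7i-3p with 3 reads in MHCC97H and 0 in HepG2. At the lower HepG2 depth such an arm can be missed, so the counts by direction alone cannot be told apart from depth.

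**Figure D5:**
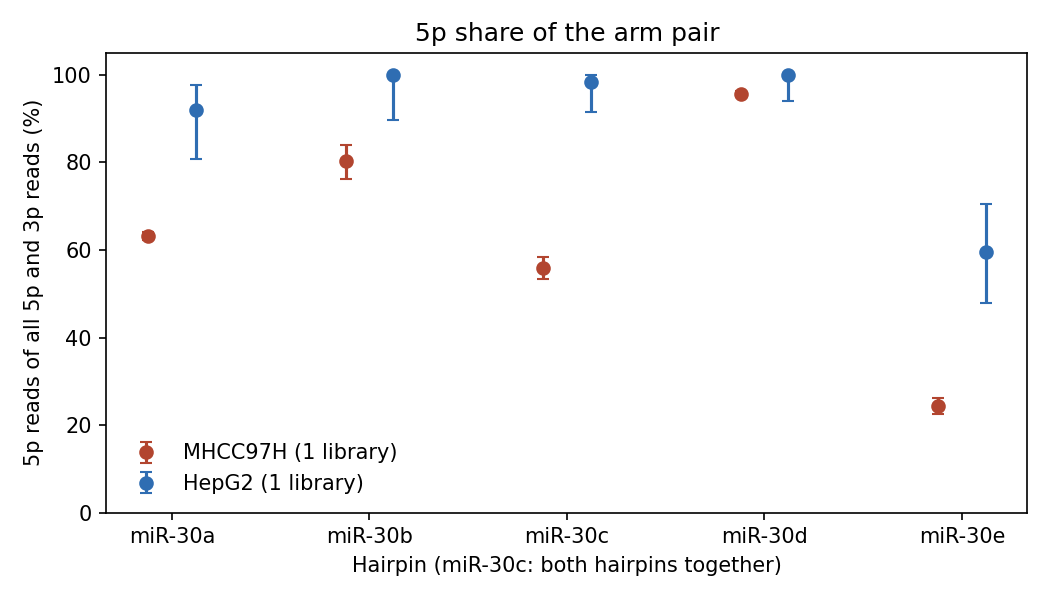
Share (%) of 5p reads among all reads of each miR-30 arm pair in the MHCC97H and HepG2 libraries; bars are 95% exact counting intervals. The MHCC97H share is the lower in each pair, from 24.3% for miR-30e to 95.7% for miR-30d, and for miR-30d the intervals overlap.

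The 3p arms of the miR-30c hairpins, which differ at 3 of 22 positions (G9A, U12C and C22U, first miR-30c-1-3p), tell the hairpins apart where the shared 5p arm does not. In MHCC97H miR-30c-2-3p, from chromosome 6, had 630 reads and miR-30c-1-3p, from chromosome 1, had 68. The former made up 90.3% of these 3p reads (87.8 to 92.4%). The 5p share of the family's arm pairs in MHCC97H ran from 24.3% to 95.7%. The split of these 3p arms therefore need not hold for miR-30c-5p. HepG2 had 0 and 1 reads of these arms, too few to give a split. With 630 reads against 0, the exact lower end of the miR-30c-2-3p ratio was 12.8-fold, while miR-30c-5p differed by 1.05-fold.

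By level in both libraries, measured as Euclidean distance in log2(CPM + 1) over 2 libraries, the miRNAs nearest to miR-30a-5p were miR-99a-5p at 1.08 and let-7a-5p at 1.26. miR-30d-5p lay nearest to miR-7-5p (0.26) and miR-423-3p (0.37). miR-30c-5p lay nearest to miR-29a-3p (0.07) and miR-26b-5p (0.09), and miR-29a-3p also had 63 HepG2 reads. The nearest to miR-30e-5p were the leukocyte miRNA miR-142-5p (0.14) and miR-181a-5p (0.42), and to miR-30b-5p miR-152-3p (0.28) and miR-10a-5p (0.34). miR-30a-5p had no close neighbor by this measure, while each of the other members had one within 0.28.

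Among the 7 seed families with at least 3 members averaging 500 CPM or more, the miR-30 5p arms had the widest range of log2 ratio over members seen in HepG2, 4.19. The families of miR-106b-5p and miR-148b-3p followed with 2.31 and 2.21. In the let-7 seed family all 9 members were higher in MHCC97H, and the 8 seen in HepG2 spanned 2.04. Its miR-98-5p had 0 HepG2 reads. Over all members, the measure first planned, the let-7 range was 9.13 with the pseudocount, the widest of the 7. That range has no upper end, so the order above uses only members seen in HepG2. The families were built from RefSeq seeds, which matched 704 of the 793 miRNAs, so the other 6 may lack members. miR-30b-5p and miR-30d-5p were added by name, and over the 3 matched miR-30 members the range was 3.93. Families with fewer such members were not ranked. A range also tends to widen with the number of members, which was 5 for miR-30, 4 and 3 for the next 2 families, and 8 for let-7. This order is a description, with no test.

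Markers of hepatocytes and of other cell types were seen in both libraries. Of 6 hepatocyte miRNAs 5 were detected in each, summing to 30664 CPM in MHCC97H and 158162 in HepG2. That sum follows miR-148a-3p (26976 and 142438 CPM), and 4 of the 6 were higher in HepG2 by both criteria. The defining miR-122-5p had 979 and 1051 CPM. In MHCC97H and then HepG2, the 4 red cell miRNAs summed to 12310 and 25316 CPM, the 4 leukocyte miRNAs to 2204 and 5168, the 2 endothelial to 6507 and 7227, the 5 mesenchymal to 19040.5 and 22864, and the 5 epithelial to 5617 and 3154 CPM. The red cell sum follows miR-451a (2716 and 20104 CPM), while the other 3 red cell miRNAs, such as miR-486-5p (8313 and 4205 CPM), had more CPM in MHCC97H. The epithelial sum follows miR-200c-3p (5055 and 394 CPM), while 3 of the 5, such as miR-200b-3p (309 and 1621 CPM), were higher in HepG2 by both criteria. The leukocyte difference follows miR-142-3p (191 and 2584 CPM). The endothelial sum is mostly miR-126-3p (6310 and 6088 CPM), but its difference follows miR-126-5p (197 and 1139 CPM). The mesenchymal sum follows miR-143-3p (18167 and 20849 CPM). In these 3 lists, 1 leukocyte, 1 endothelial and 2 mesenchymal miRNAs were higher in HepG2 by both criteria, and 0 in MHCC97H. All markers of the other cell types were detected in both libraries. Their part in the miR-30 levels was not tested.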

How the data were processed

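Small RNA libraries from exosomes of MHCC97H and HepG2 cells, 1 per line, were made with an NEBNext kit after TRIzol extraction and size selection, per the labels' protocols. The deposited values are unnormalized counts of reads for each mature miRNA, per the file headers. Cutadapt and Bowtie were used, per the submitters' processing notes, and neither their versions nor the mismatch setting, miRBase release or genome build is given in those sources.

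The 915 entries cover 793 names. A repeated name was counted once at its highest count; both entries of miR-30c-5p are equal. From these counts CPM was computed over the library total (304457 and 22831 reads), and log2 ratios with a pseudocount of 1 CPM, after a filter at 10 CPM in at least 1 library. With 1 library per line no test was possible; intervals are 95% exact Clopper-Pearson on the split of reads, and for ratios of ratios exact conditional intervals. The call rule was tested on simulated data with counting error alone, so that test cannot speak to variation between libraries. Members and lists were chosen with earlier results of these data known. The named miRNAs were the 5p and 3p arms, the 2 nearest miRNAs to each 5p arm, miR-21-5p, up to 3 seed families and the cell type markers. The let-7 seed family with its miR-98-5p was added after its values were seen. So were the examples let-7i-3p, miR-24-2-5p and miR-483-5p. Scaling by trimmed mean of M-values used edgeR 4.0.16 in R 4.3.3. All else ran in Python 3.11.15 with scipy 1.17.1, pandas 2.3.3, numpy 2.4.6 and, for the figures, matplotlib 3.10.9.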

Additional observations from a re-analysis of the deposited data

How the results depend on the processing

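Of 135 alternative values, 116 kept their direction and their side of the thresholds, or stayed within the counting interval for shares. Many of these could hardly change, so the count does not measure stability. All members lie above every low-value filter used, and the other pseudocounts are small beside their levels. Averaging repeated names leaves the shares unchanged, because both miR-30c-5p entries are equal. Median centring took miR-30d-5p to a log2 ratio of 0.70 and the sum of the 5 arms to 0.82, both below 2-fold, and miR-30b-5p to -1.57, miR-30c-5p to -1.04 and miR-30e-5p to -1.31, all higher in HepG2, so that 1 arm was higher in MHCC97H and 3 in HepG2. A total without the 10 most abundant miRNAs of either library took miR-30b-5p to -1.12, the 1 arm then higher in HepG2, and miR-30c-5p to -0.59. miR-30c-5p also turned to -0.21 with a total without miR-21-5p and to -0.094 with repeated names summed. At 4-fold, 1 arm was higher in MHCC97H. The sum without miR-30a-5p, an alternative chosen after seeing the data, had a log2 ratio of 0.76. A total without the miR-30 5p arms, also chosen after seeing the data, changed no call.

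Summing repeated names doubles miR-30c-5p. Its share of the family reads then became 13.0% in MHCC97H and 40.3% in HepG2, miR-30a-5p held 59.9% and miR-30d-5p 20.7% in MHCC97H, and the 5p share of the miR-30c arms in MHCC97H became 71.7%.

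No paired analysis was possible because each line has 1 library, so leaving out a replicate was not run. The 250 HepG2 reads of the family limit every ratio, and a count of 0 there has an exact upper end of 162 CPM.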
